A study of Rattus norvegicus with 6 samples.

Results

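The comparison set the genomic positions of 2 histone lactylation marks, H3K9la and H4K16la, against each other in untreated rat tenocytes, the fibroblast-like cells of tendon. Its members were all peaks of 2 CUT&Tag libraries, 61850 for H3K9la and 40681 for H4K16la, together 102531 of the 315825 peaks in the 6 libraries of the series. No peak was left out and no measured value was used to choose them. Both libraries came from wild-type tenocytes in culture with no lactate added. The other 4 libraries were H4K8la from untreated cells, and H3K9la, H4K8la and H4K16la from cells given 20 mM lactate, and they served here as further readouts. The labels do not say whether the cells were a primary culture or a line, nor the age and sex of the animals. Peak lists hold no expression values, so the labelled cell type was not checked against markers.

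Lactylation places a lactyl group, derived from lactate, on a lysine side chain. H3K9 and H4K16 are lysines in the tails of histones H3 and H4, and both are also well-known sites of acetylation, a modification found at active promoters and enhancers. In CUT&Tag an antibody guides a transposase to the chromatin that carries a mark, and the released fragments pile up into peaks.

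With 1 library a side there was no replicate, no test between the marks was possible, and no p-value was computed. Every interval given is a 95% counting interval, by the Wilson method for shares, and covers counting error only. Overlapping fragments are not independent, so the true error is wider. Each peak's fold (pileup at its summit over local background) and −log10 q are the values of the authors' peak caller. Positions follow build rn7 and start at 1. Genes and promoters of this build were not analysed here, and peaks are therefore named by position.

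The 2 marks met at many places, and most of the strongest peaks of each lay on a peak of the other. Of the H4K16la peaks, 18487 (45.4%, interval 45.0 to 45.9) overlapped an H3K9la peak by at least 1 bp. Of the H3K9la peaks, 18499 (29.9%, 29.5 to 30.3) overlapped an H4K16la peak. The other 43351 H3K9la peaks (70.1%) and 22194 H4K16la peaks (54.6%) were found for one mark only. For scale, the H3K9la peaks covered 1.35% of the span of the chromosomes and the H4K16la peaks 0.796%, where the span of a chromosome ends at its last peak in any library.

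Overlap rose steeply with peak strength in both lists. Among H4K16la peaks of −log10 q under 3, 24.5% (23.9 to 25.2) had an H3K9la partner, and among those of 10 or more 95.5% (94.5 to 96.3) did. The same range ran from 11.8% (11.3 to 12.2) to 78.6% (77.2 to 79.9) for H3K9la peaks with an H4K16la partner. In each of the 4 strength classes the H4K16la share was the higher one. This left 95 H4K16la peaks of −log10 q of at least 10 without H3K9la, out of 2110, against 800 H3K9la peaks of that strength without H4K16la, out of 3735. The H4K16la peaks were looked up in the longer list, 61850 peaks against 40681. The part of list length and depth in these differences was not tested.

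**Figure D1:**
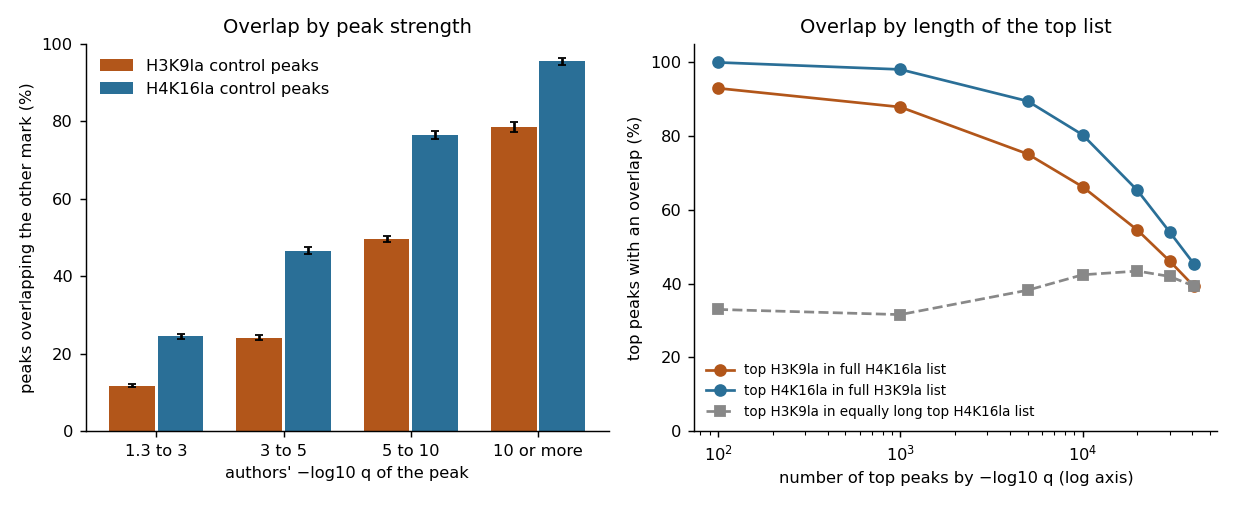
Left, bars give the percentage of control peaks that overlap a peak of the other mark, by the authors' −log10 q, with 95% Wilson intervals; the share rises from 24.5% to 95.5% for H4K16la and from 11.8% to 78.6% for H3K9la. Right, lines give the percentage of the top peaks by −log10 q (log axis, 100 to 40681) that overlap the full list or the equally long top list of the other mark; the full-list lines fall from 93.0% and 100% while the dashed line stays between 31.6% and 43.4%.

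Overlap was also read at equal list lengths, where both shares must come out nearly equal because almost all pairs join a single peak of each mark. With both lists held to the 40681 peaks of highest −log10 q, 39.4% (38.9 to 39.8) of the H3K9la peaks and 39.5% (39.0 to 40.0) of the H4K16la peaks were shared. The very top of the rankings met less often. Of the top 1000 H3K9la peaks, 31.6% (28.8 to 34.5) lay on one of the top 1000 H4K16la peaks, although 87.9% lay on some H4K16la peak. Of the top 1000 H4K16la peaks, 98.1% lay on some H3K9la peak. Among the top 100 of each, 33 peaks coincided, and all 100 of the H4K16la peaks had a partner somewhere in the full H3K9la list, against 93 of the 100 H3K9la peaks in the H4K16la list. The shares against full lists again set the H4K16la peaks against the longer list.

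H3K9la had more peaks, with a log2 ratio of H3K9la to H4K16la of 0.60 (0.59 to 0.62), and covered 35.5 Mb against 21.0 Mb. The lead was larger at −log10 q of at least 5, where 19455 peaks stood against 9841, a log2 ratio of 0.98. Depth moved with these numbers. The genome-wide background was taken as the commonest background value recovered from the authors' fold and p columns. It was 2.17 fragments over a base for H3K9la and 1.53 for H4K16la, a ratio of 1.42. Scaling the H3K9la pileups and local backgrounds down to the H4K16la depth, with no random draws, left 45296 H3K9la and 38562 H4K16la peaks at −log10 p of at least 4, a log2 ratio of 0.23. At −log10 p of at least 10 the direction turned, with 4155 H3K9la and 5966 H4K16la peaks and a log2 ratio of −0.52, where the lists as deposited gave 0.87. Such scaling cannot bring in peaks that a new call would find, and the part of this in the scaled counts was not tested. The larger number of H3K9la peaks therefore cannot be told apart from the deeper library.

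H3K9la peaks were wider in untreated cells. Their median width was 500 bp, against 456 bp for H4K16la, and 571 against 456 bp at equal numbers, a cut that removed weak peaks from H3K9la alone. With lactate the medians were 449 bp for H3K9la and 448 bp for H4K16la. The part of depth in the widths was not tested. All widths in the 2 control lists lay between 290 and 2945 bp. In these lists the median fold ran the other way, 3.47 for H3K9la and 3.91 for H4K16la, and at equal numbers 3.79 and 3.91. The median −log10 q was 3.74 for H3K9la and 3.30 for H4K16la. Fold and q both change with depth, so these medians describe each library and do not measure the amount of either mark.

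Shared peaks were stronger and broader than peaks of one mark in both lists. For H3K9la the median width was 650 bp for shared peaks and 455 bp for the others, the median fold 3.83 and 3.33, and the median −log10 q 5.63 and 3.28. For H4K16la the median width was 538 and 408 bp, the median fold 4.22 and 3.68, and the median −log10 q 4.51 and 2.67. The interquartile ranges overlapped, with −log10 q quartiles of 3.83 to 8.25 for shared and 2.44 to 4.60 for one-mark H3K9la peaks, so neither strength nor width by itself separated the classes. The highest −log10 q of a peak without partner was 90.8 for H3K9la and 17.3 for H4K16la.

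The 18606 overlapping pairs were mostly simple, and 18155 of them (97.6%) joined a single peak of each mark. The overlap filled a median of 97.8% of the shorter peak, and 1906 pairs (10.2%) overlapped by under 50% of it. In 31.4% of pairs the H4K16la peak lay wholly inside the H3K9la peak, and in 12.9% the reverse held. H3K9la was the wider peak in 64.1% of pairs, with median widths of 653 and 540 bp.

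Summits of a pair stood a median of 141 bp apart, with quartiles of 48 and 278 bp, and 63.1% of pairs had them within 200 bp. The summits came closer at strong pairs. Where both peaks reached −log10 q of at least 10 (993 pairs), the median distance was 68 bp, and where both were under 3 (981 pairs) it was 188 bp, although the weak peaks were narrower, with medians of 433 and 410 bp against 837 and 776 bp. The H3K9la summit stood at the higher genome coordinate in 50.3% of all pairs. Strand was not used, so an offset that follows gene direction would cancel here and was not tested. In 326 pairs both summits fell on the same base, 51 of them among the 993 strong pairs. A summit rests on few fragments in a weak peak, and the part of that in the longer distances was not tested.

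**Figure D2:**
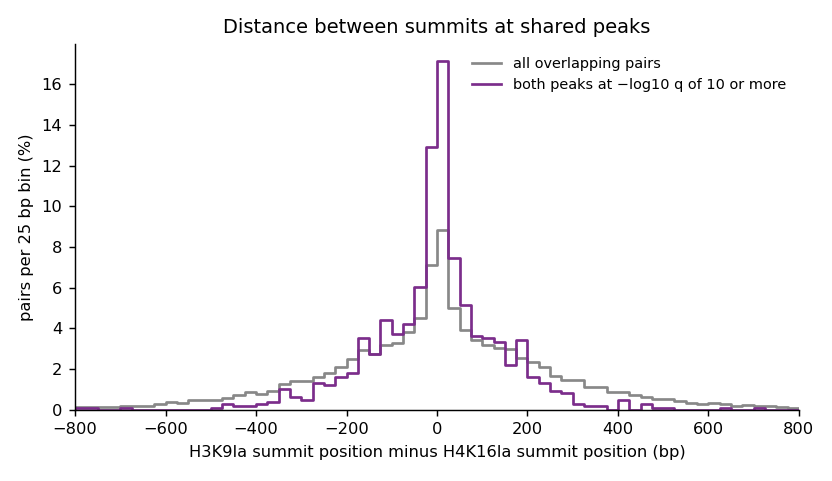
Lines give the percentage of overlapping pairs in each 25 bp bin of the H3K9la summit position minus the H4K16la summit position, in bp, for all 18606 pairs (grey) and the 993 pairs with both −log10 q of at least 10 (purple). Both are centred on 0, and the strong pairs are the tighter set, with medians of 68 and 141 bp.

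At shared pairs the strength of one mark went partly with that of the other. Across the 18606 pairs Pearson's r was 0.52 for log2 fold (Spearman's rho 0.48) and 0.54 for −log10 q (rho 0.41), and it was 0.26 for log2 width (rho 0.26). Local background, the coverage around a peak, gave 0.61 (rho 0.60). These are descriptions across sites of 2 libraries, which share mappability and copy number, and sites are not replicates. The fold was higher for H4K16la at most pairs, with a median log2 ratio of H3K9la to H4K16la of −0.14 (quartiles −0.37 and 0.08), and H3K9la was higher at 33.3% of them. Between strong pairs the ratio had the same median, −0.14.

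The 8 pairs of highest mean −log10 q were each found in all 4 other libraries, and 6 of them had summits within 13 bp of each other. The first, on chromosome 1 from 154403659 to 154404083, had the same bounds in both lists, folds of 17.7 for H3K9la and 19.4 for H4K16la, and 153 fragments at each summit in spite of the unequal depth. On chromosome 19 the pair from 22507335 to 22507966 had folds of 15.4 and 13.8. On chromosome 20, from 3541727 to 3542912, they were 10.7 and 11.6. The local background was at least 4 times the genome-wide one at 5 of the 8 for H3K9la and at 5 for H4K16la, not all of them the same pairs, and reached 25.4 times for H4K16la on chromosome 3 from 2252190 to 2253244. Regions prone to artefacts were not removed, and their part in these pairs was not tested.

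Among the 993 strong pairs the log2 fold ratio had a median of −0.14, on the H4K16la side. It ran from −0.53 at the 5th percentile to 0.22 at the 95th, so both tails lay about that offset. The part of depth in the offset was not tested, and the pairs named next are the extremes of each tail. The 5 pairs with the largest lead of H4K16la had log2 fold ratios of −0.94 to −0.83. They were led by chromosome 16 from 70962682 to 70963605, with a fold of 4.33 for H3K9la and 8.32 for H4K16la. The summits there held 45 and 34 fragments, on local backgrounds of 4.44 and 2.10 times the genome-wide one. The second pair, on chromosome 8 from 40682749 to 40683469, had 66 and 49 fragments on backgrounds of 7.08 and 3.60 times. The background was at least 4 times genome-wide at 3 of the 5 pairs for H3K9la and at 1 for H4K16la. On chromosome 18 from 30085040 to 30085885 the folds were 5.33 and 9.51, with 29 fragments at the H3K9la and 51 at the H4K16la summit, although H3K9la was the deeper library. The 5 pairs with the largest lead of H3K9la reached 0.39 to 0.43, led by chromosome 1 from 165239116 to 165240005 with folds of 9.31 and 6.91. Of these 10 pairs, the H3K9la-leading one on chromosome 3 from 114340766 to 114341120 lacked a peak in the H4K8la lactate library, and the other 9 had peaks in all 4 other libraries.

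Peaks of one mark were then looked up in the 4 libraries that had not been used to define them. Most were weak, and 49.5% of the H3K9la-only and 61.7% of the H4K16la-only peaks were found in no other library, against 7.81% and 8.13% of the shared peaks. All 4 other libraries had a peak at 3.28% of the H3K9la-only and 2.08% of the H4K16la-only peaks, and at 37.3% of the shared H3K9la and 36.7% of the shared H4K16la peaks.

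Among strong peaks the pattern changed to recurrence in the lactate library of the same mark. Of the 800 H3K9la-only peaks of −log10 q of at least 10, 69.1% (65.8 to 72.2) had a peak in H3K9la lactate and 58.5% (55.1 to 61.9) in H4K16la lactate, even though the latter list is the longer, 62563 against 46597. Of the 95 such H4K16la-only peaks, 76.8% (67.4 to 84.2) recurred in H4K16la lactate and 50.5% (40.6 to 60.4) in H3K9la lactate. Counted peak by peak, 198 strong H3K9la-only peaks were in H3K9la lactate but not in H4K16la lactate, and 113 the reverse. The lead of H3K9la lactate at these peaks varied with local background. The shares were 72.9% and 53.1% at the 358 peaks with at least 4 times the genome-wide background. At 2 to 4 times (321 peaks) they were nearly equal, 67.6% and 66.7%. Under 2 times (121 peaks) they were 62.0% and 52.9%. For the strong H4K16la-only peaks, 34 were in H4K16la lactate alone of these and 9 in H3K9la lactate alone. Over all H3K9la-only peaks the direction was the opposite, 21.6% in H3K9la lactate and 24.4% in H4K16la lactate. With the other 4 lists held to their 42787 strongest peaks it was 20.5% and 18.6%, and the strong peaks then gave 68.4% and 52.8%. For all H4K16la-only peaks the own mark led in both settings, 20.2% against 13.7% as deposited and 15.6% against 12.9% at equal list lengths.

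H4K8la, a mark on the same histone as H4K16la, was found at 77.0% (74.0 to 79.8) of the strong H3K9la-only peaks in untreated cells. This was above the 69.1% of H3K9la lactate, but from a longer list, 61347 peaks against 46597. With both lists held to 42787 peaks the shares were 72.6% (69.4 to 75.6) and 68.4% (65.1 to 71.5), and the intervals overlapped. H4K8la control was found at 73.7% (64.0 to 81.5) of the strong H4K16la-only peaks. At strong shared peaks its share was higher, 95.5% for H3K9la and 97.6% for H4K16la. In the lactate library H4K8la was found at 50.6% and 66.3%. A strong peak called for one of the 2 marks was thus in most cases also called for another lactylation mark in untreated cells.

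**Figure D3:**
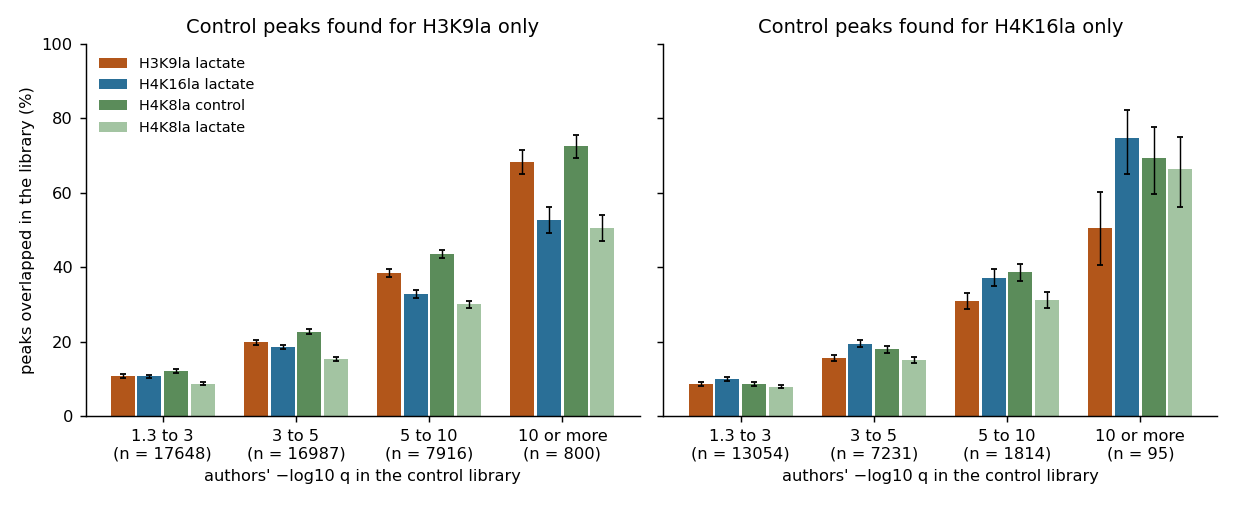
Bars give the percentage of control peaks found for H3K9la only (left) or H4K16la only (right) that overlap a peak of each of 4 other libraries, held to 42787 peaks each, by −log10 q in the control library, with 95% Wilson intervals. At −log10 q of at least 10, H3K9la lactate stands above H4K16la lactate on the left (68.4% and 52.8%) and below it on the right (50.5% and 74.7%), with 800 and 95 peaks.

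The strongest peaks without a partner differed in local background between the 2 marks, as the whole lists did. A background of at least 4 times the genome-wide one was reached by 13.9% of all H3K9la and 2.31% of all H4K16la peaks. Of the strong one-mark peaks, 358 of 800 for H3K9la and 7 of 95 for H4K16la reached it. So did 5 of the 8 pairs of highest mean −log10 q for each mark, so it was not particular to peaks without a partner. The 8 leading H3K9la-only peaks had −log10 q of 23.5 to 90.8, and 7 of them stood on a local background of at least 5 times the genome-wide one. The first lay on chromosome 12 from 11665049 to 11666007, with 201 fragments at its summit, a fold of 6.86 and a local background 13.1 times genome-wide, and the nearest H4K16la peak was 16657 bp away. H3K9la lactate and H4K8la control had a peak there, and H4K8la lactate and H4K16la lactate did not. The peak on chromosome 1 from 164915701 to 164916408 showed the same pattern, with 114 fragments and a fold of 4.31. On chromosome 4 from 150426711 to 150427558 (fold 4.82) all 4 other libraries had a peak, and the nearest untreated H4K16la peak was 80035 bp off. Of the 8, 7 were found in H3K9la lactate, 7 in H4K8la control, 5 in H4K16la lactate and 4 in H4K8la lactate.

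The 8 leading H4K16la-only peaks were weaker, at −log10 q of 14.8 to 17.3 with 30 to 51 fragments at the summit, and 1 of them had a local background of at least 5 times genome-wide. The first, on chromosome 19 from 51575078 to 51575954 (fold 7.47), was in no other library. Chromosome 9 from 25721166 to 25721483 carried the peak of highest fold among these 8 (8.16), which was in all 4 others, H3K9la lactate included, and untreated H3K9la had no peak within 30420 bp. At chromosome 16 from 18891300 to 18892314, and likewise at chromosome 7 from 9380501 to 9380992, both H4K8la libraries and H4K16la lactate had a peak and H3K9la lactate had none. On chromosome 6 from 52844118 to 52844527 the peak lay 276 bp from an H3K9la peak. Of the 8, 7 were found in H4K8la control, 6 in H4K8la lactate, 5 in H4K16la lactate and 3 in H3K9la lactate.

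Close misses made up a small part of the one-mark peaks. The median distance to the nearest peak of the other mark was 13.1 kb for H3K9la-only and 10.5 kb for H4K16la-only peaks, and 6.07% and 9.20% lay within 1 kb. At −log10 q of at least 10, 23 of the 800 H3K9la-only and 10 of the 95 H4K16la-only peaks lay within 1 kb. Of the H3K9la-only peaks, 217 were within 50 bp of an H4K16la peak, the nearest outside the 1 bp rule. Just inside it, 375 pairs overlapped by under 50 bp.

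A plain difference between the 2 libraries was where the coverage around the peaks lay. In H3K9la, 13.9% of peaks stood in stretches with a local background of at least 4 times the genome-wide one, and in H4K16la 2.31% did. At equal numbers the shares were 17.4% and 2.31%. H3K9la peaks also sat closer together. The median distance between neighbouring peak centres was 16.1 kb for H3K9la and 28.2 kb for H4K16la, and at equal numbers 22.3 and 28.2 kb. Runs of 3 or more peaks with gaps under 5 kb numbered 1129 for H3K9la and held 5.92% of its peaks. H4K16la had 102 such runs with 0.794% of its peaks, and H3K9la at equal number had 425 runs with 3.33%.

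This property did not follow the mark across the series. H4K8la control shared it with H3K9la control, with 14.6% of peaks in high-coverage stretches and 4.49% in runs. The 3 lactate libraries had 0.225% to 2.59% in such stretches and 0.879% to 1.92% in runs, and H3K9la lactate, with 2.59% and 1.49%, stood nearer to H4K16la control than to H3K9la control. In this respect H4K16la control was apart from the other untreated libraries. Whether mark, culture or library preparation goes with it cannot be told apart with 1 library each.

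**Figure D4:**
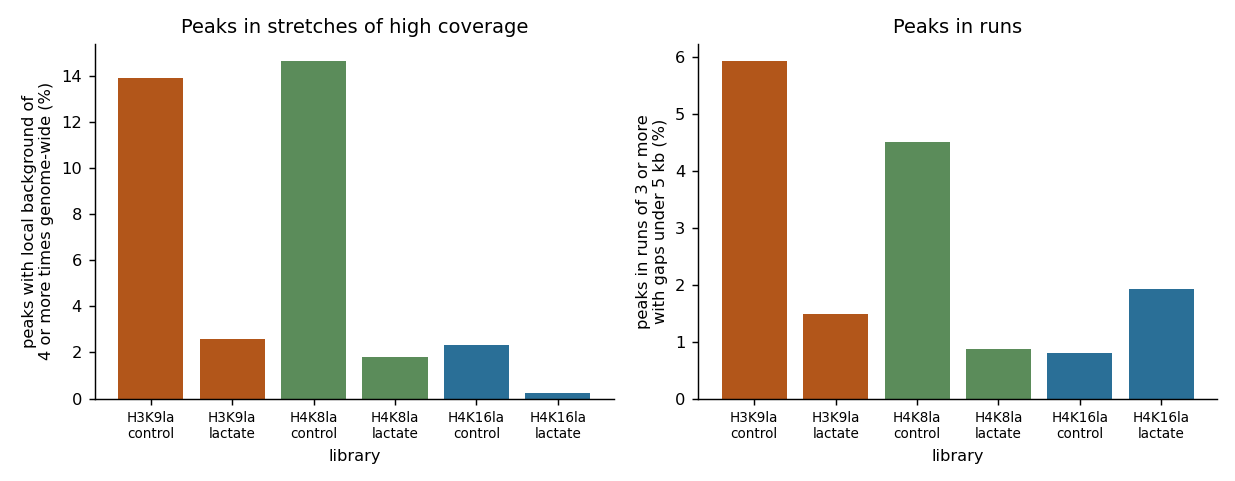
Bars give, for each of the 6 libraries, the percentage of peaks whose local background is at least 4 times the genome-wide one (left) and the percentage of peaks in runs of 3 or more with gaps under 5 kb (right). H3K9la control and H4K8la control stand above the other 4, with 13.9% and 14.6% on the left against at most 2.59%.

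In both lists the high-coverage stretches held a larger part of the shared peaks than of the one-mark peaks. For H3K9la they held 3016 shared (16.3%, 15.8 to 16.8) and 5570 one-mark peaks (12.8%, 12.5 to 13.2). For H4K16la they held 743 shared (4.02%, 3.75 to 4.31) and 198 one-mark peaks (0.892%, 0.777 to 1.02). At like strength, the stronger H3K9la peaks there met H4K16la less often. At −log10 q of 5 to 10 the shared part was 43.6% (41.9 to 45.3) in these stretches, 53.5% (52.3 to 54.6) at 2 to 4 times and 48.2% (46.9 to 49.5) under 2 times the genome-wide background. At 10 or more it was 69.9% (67.3 to 72.5), 82.1% (80.3 to 83.8) and 83.8% (81.0 to 86.3). At −log10 q of 3 to 5 it was 21.1% (19.6 to 22.7) in these stretches, 29.9% (28.9 to 30.9) at 2 to 4 times and 21.1% (20.4 to 21.9) under 2 times, so it was lower than in the middle class alone. For H4K16la peaks at −log10 q of 5 to 10 the shared part was lowest under 2 times, at 67.1% (65.5 to 68.7). It was 84.0% (82.9 to 85.1) at 2 to 4 times and 83.2% (78.5 to 87.0) in these stretches.

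Which other libraries had the H3K9la-only peaks also changed with local background. At −log10 q of 3 to 5, H4K8la control was found at 45.2% of the H3K9la-only peaks in high-coverage stretches and at 19.1% of those under 2 times. H3K9la lactate was found at 27.7% and 16.9%. H4K16la lactate went the other way in this strength class, with 18.9% in these stretches and 24.1% under 2 times. That direction did not hold throughout, since H4K16la lactate was found at 53.1% and 52.9% at −log10 q of 10 or more, and at 24.1% and 21.8% over all H3K9la-only peaks. For H4K8la control the share over all H3K9la-only peaks was 50.2% in these stretches and 17.2% under 2 times.

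Over chromosomes the marks were spread alike, except on X. Counts of peaks in 1 Mb windows went together, with Pearson's r of 0.90 and Spearman's rho of 0.92 across 2432 windows. On the autosomes alone they were 0.90 and 0.92 across 2290. Windows share gene content and mappability in both libraries. The median window held 24 H3K9la and 16 H4K16la peaks. In 64 windows there was only H3K9la and in 117 only H4K16la, with at most 6 and 5 peaks.

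Across the 20 autosomes the log2 ratio of a chromosome's share of H3K9la peaks to its share of H4K16la peaks lay between −0.12 and 0.08. The highest ratios were on chromosomes 15 (0.08), 6 (0.07) and 18 (0.06), and all 3 intervals held 0. Chromosome 12 had the lowest, −0.12 (−0.23 to −0.01), with 2.53% of the H3K9la and 2.75% of the H4K16la peaks, and it was the only autosome whose interval did not hold 0. On Y there were 5 H3K9la and 4 H4K16la peaks, too few to compare.

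On X the ratio was −0.68 (−0.81 to −0.55). X held 954 of the H3K9la peaks, 1.54% (1.45 to 1.64), and 1007 of the H4K16la peaks, 2.48% (2.33 to 2.63), so H4K16la had more X peaks from the shorter list. Both marks were sparse there. X had 6.26 H3K9la and 6.61 H4K16la peaks per Mb, and the autosomes together 24.7 and 16.1, with the lowest single autosome at 19.5 and 13.1. Fewer H4K16la peaks of X were shared, 24.4% against 46.0% on the autosomes. For H3K9la the shares were closer, 25.4% and 30.0%. Peaks on X were weaker, with a median −log10 q of 2.77 against 3.30 on the autosomes for H4K16la and 3.09 against 3.75 for H3K9la. The shares on X and autosomes were not compared at like strength.

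**Figure D5:**
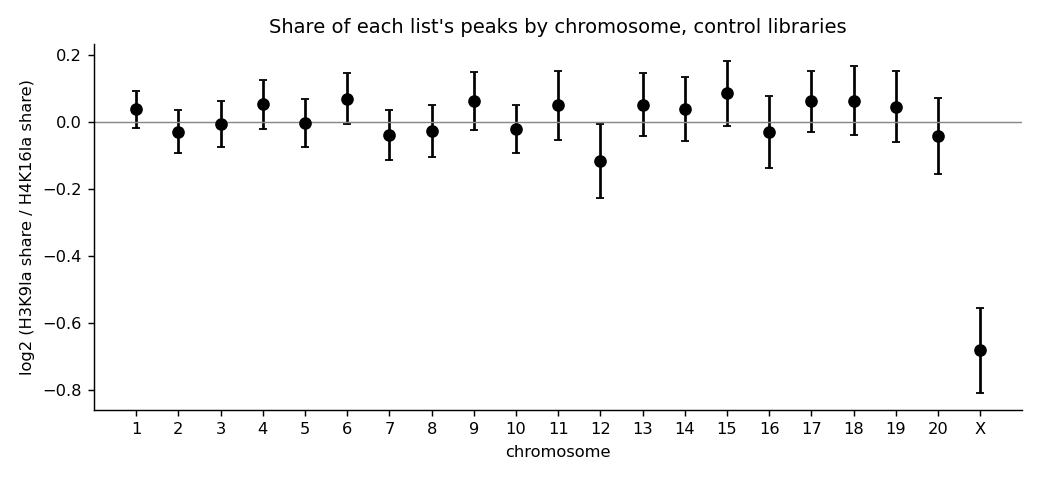
Points give the log2 ratio of the share of H3K9la control peaks to the share of H4K16la control peaks on each chromosome, with 95% counting intervals; Y, with 5 and 4 peaks, is left out. The autosomes lie between −0.12 and 0.08 and X at −0.68.

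At equal numbers X held 486 H3K9la and 1007 H4K16la peaks among 40681 each, a log2 ratio of −1.05. That cut removed weak peaks from H3K9la alone. The X share fell with strength in both lists, to 0.32% (12 peaks) for H3K9la and 0.71% (15 peaks) for H4K16la at −log10 q of at least 10. The cut therefore lowers the H3K9la share by construction. With both lists cut to their top 10000, X held 66 H3K9la and 140 H4K16la peaks, and in the top 1000 it held 5 and 3. The log2 ratio of X shares was −0.50 at −log10 q of at least 5. Scaled to the H4K16la depth, H3K9la had 1.33% of its peaks of −log10 p of at least 4 on X, against 2.41% for H4K16la. The lactate libraries, which the comparison did not use, had the same direction, with 1.84% (1.72 to 1.96) for H3K9la and 2.41% (2.29 to 2.53) for H4K16la, a log2 ratio of −0.39. The 2 H4K8la libraries had 2.28% and 2.92%, so over all peaks both H3K9la libraries lay below all 4 libraries of H4 marks. The order was the same at −log10 q of at least 5. At 10 or more, H3K9la lactate had 0.80%, from 9 X peaks. The H4K8la libraries then had 0.76% in control and 0.79% with lactate, and H4K16la had 0.71% and 0.99%. Local background moved with the X share. Among peaks with under 2 times the genome-wide background, X held 2.67% (2.50 to 2.86) for H3K9la and 3.46% (3.24 to 3.69) for H4K16la in untreated cells, and 2.61% (2.43 to 2.79) and 2.81% (2.67 to 2.96) with lactate, where the intervals overlap. Of the 712 H3K9la-only peaks on X, 12.9% were in H3K9la lactate and 19.7% in H4K16la lactate, the longer list. Of the 761 H4K16la-only peaks on X, 16.4% were in H4K16la lactate and 8.15% in H3K9la lactate. With these lists held to equal lengths the gaps were smaller, 12.5% and 15.7% for H3K9la-only peaks and 12.5% and 7.88% for H4K16la-only peaks.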

How the data were processed

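CUT&Tag peak lists of 6 libraries were used, 1 per mark and treatment, grouped by sample title. The submitters' processing notes name FastQC and cutadapt, Bowtie2, MACS2 and deepTools, and build rn7. Versions, settings and any use of an IgG control: not given in the sources used here. Peaks were called per library. The deposited fold is a ratio of summit pileup to local background. The deposited −log10 p and −log10 q are per peak, from −log10 q of 1.3, and the authors' score column repeats q as a whole number. Members and lists were chosen with earlier results of these data known. Read totals are not in the lists. Depth was recovered by solving fold = (pileup + 1)/(background + 1) together with the Poisson tail p for a whole pileup within 0.002 of −log10 p, which worked for every peak of both control lists. This reading is inferred from the values. The commonest background of a list was taken as genome-wide. If an IgG library entered the calling, local background would come partly from it. Ties in −log10 q were taken in genome order. Intervals of log2 ratios come from the Wilson interval of one list's share of both. Peaks named are the 8 of highest −log10 q per one-mark class, the 8 pairs of highest mean −log10 q, and the 5 pairs of largest fold ratio each way with both −log10 q of at least 10. Chromosomes named are the 3 highest and 3 lowest ratios. Gene lists were not used, since the gene table at hand is for another assembly. Thresholds, overlap rules and equal numbers were varied; equal lists for the other libraries, and the X share at −log10 q of at least 10 and with lactate, were added after seeing the data. Overlap and pileup code was tested on simulated data. Python 3.11.15, numpy 2.4.6, pandas 2.3.3, scipy 1.17.1 and matplotlib 3.10.9 were used.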

Additional observations from a re-analysis of the deposited data

Results flagged for a closer look

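Several contrasts of H3K9la against H4K16la had opposite signs in untreated cells and in cells given 20 mM lactate. With 1 library a side, the difference between conditions was not tested. The log2 ratio of peak numbers was 0.60 in control and −0.43 with lactate. The log2 ratio of background coverage was 0.50 in control and −0.60 with lactate. The log2 ratio of median folds was −0.17 in control and 0.12 with lactate, and that of median −log10 q was 0.18 and −0.06. For the share of neighbouring peaks with centres under 5 kb apart it was 1.55 in control and −0.23 with lactate. By contrast the X share kept its sign, −0.68 and −0.39. The log2 ratio of median widths was 0.13 in control and 0.003 with lactate.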

How the results depend on the processing

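No paired analysis was possible because each group holds 1 library and the result comes from no test, and no replicate could be left out. The log2 ratio of peak numbers (0.60) was 0.98 and 0.82 at −log10 q of at least 5 and 10, 0.76 in covered bases, 0.23 with H3K9la scaled to the lower depth (−log10 p of 4 or more) and −0.52 for a −log10 p of 10 or more, the reversal; fewer fragments in the scaled library are part of that setting's construction. The shared part of H3K9la (29.9%) and of H4K16la (45.4%) was 30.3% and 59.9% with both lists at −log10 q of at least 5, 26.6% and 47.0% at 10, 39.4% and 39.5% at equal numbers, 42.4% and 42.4% for the top 10000, and 31.6% and 31.5% for the top 1000. It was 26.9% and 41.0% where overlaps had to reach 50% of the shorter peak, 29.3% and 44.5% with centres within 500 bp, 19.0% and 28.9% with summits within 200 bp, and 23.6% and 40.0% in covered bases. At equal numbers, in shared peaks and in one-mark peaks, the log2 ratio of H3K9la to H4K16la was 0.32, 0.27 and 0.16 for median width (0.13 over all peaks), −0.044, −0.14 and −0.15 for median fold (−0.17), and 0.57, 0.32 and 0.30 for median −log10 q (0.18). The median summit distance (141 bp) was 68 bp at strong pairs and 130 bp at pairs narrower than 1000 bp. The log2 ratio of X shares (−0.68) was −1.05 at equal numbers, −0.50 and −1.15 at −log10 q of at least 5 and 10, and −0.39 with lactate. For H3K9la-only peaks, the percentage found in H3K9la lactate minus that in H4K16la lactate (−2.73 points) reversed to 0.72 and 10.6 points at −log10 q of at least 5 and 10, and to 1.84 points, or 15.6 at 10, with the other lists at equal lengths; the cause was not tested. For H4K16la-only peaks the own-mark lead (6.56 points) was 12.3 and 26.3 points at 5 and 10, 5.63 with an overlap of at least 50%, and 2.64, or 24.2 at 10, at equal lengths.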
